A study of Mus musculus with 9 samples.

Results

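The genes described here are 38 genes of protein folding, secretion and the unfolded protein response of the endoplasmic reticulum (ER). They were taken by gene symbol from a table of estimated counts with 55276 symbols, in which all 38 were found, and all 38 were among the 17672 genes that passed the filter on low counts. The cells are PPTR cells, a line of mouse intrahepatic cholangiocarcinoma (iCCA), a cancer of the bile duct epithelium, that was grown from liver cancer organoids and adapted to flat culture in medium with fetal bovine serum. All groups shared the same engineered background, which includes Prom1CreERT2, a Cre recombinase expressed from Prom1 and activated by tamoxifen, and the Rosa-ZsGreen reporter. The control cells have the genotype label WT and are the Vcam1ctrl cells of the study, and KO1 and KO2 are clones made with Cas9 and a guide against exon 2 of Vcam1, an adhesion receptor of the immunoglobulin family. Messenger RNA was sequenced in 3 libraries per group, 9 in all, collected from different passages, and the labels do not give the passage of a library. Each KO clone grew from 1 edited cell, so that a difference made by the edit and a difference between clones cannot be told apart.

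The ER is where secreted and membrane proteins are made, and collagen is among its bulkiest cargoes. Proteins enter through the Sec61 channel, fold with the help of Hsp70, Hsp90 and lectin chaperones and disulfide isomerases, and leave in vesicles with a COPII coat, while misfolded chains are returned to the cytosol and degraded. The sensors Ern1 (Ire1), Atf6 and Eif2ak3 (Perk) answer to unfolded proteins through splicing of Xbp1 mRNA, cleavage of Atf6 and translation of Atf4, and these steps are not read by the level of an mRNA.

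Vcam1 was read first. Its level was read in counts scaled to library size with TMM factors (CPM). It ran from 221 to 329 in the control libraries and from 82.96 to 128 in the clones, below control in all 6 but not at 0. The study reported that both clones had lost Vcam1, by quantitative RT-PCR and flow cytometry, and mRNA counts do not read the protein. The libraries held 53415907 to 125223073 counts. Of the 10 biliary and simple epithelial markers, 9 were tested and 6 fell in KO1 and 6 in KO2 cells by edgeR's quasi-likelihood test. The counts of markers stand beside all genes tested, of which 30% fell and 29.9% rose in KO1 cells. In KO2 cells 26.1% of all genes fell and 25.3% rose. Krt19 and Spp1 are named after their values were seen. The keratin Krt19 stood at 2129, 2341 and 2406 CPM in control libraries and under 1 CPM in every clone library, while Spp1, an abundant secreted protein, rose, and the summed level of the list ran from 13569 to 15249.8 CPM in control, 10618 to 11078 CPM in KO1 and 7635 to 11082 CPM in KO2 libraries. Of 10 fibroblast and stellate markers, 7 were tested, and 5 rose in KO1 and 5 in KO2 cells, with 1 lower in KO1. Their sum ran from 118 to 231 CPM in control, 3944 to 6324 CPM in KO1 and 1374 to 2505 CPM in KO2 libraries, with the stellate marker Lrat at 3 counts or fewer in every library. Of 6 hepatocyte markers 4 were tested, 3 fell in KO1 and 4 in KO2 cells, and the list summed to 44.3 to 176 CPM in control libraries and to at most 3.05 CPM in clone libraries. The 6 haematopoietic markers, with Cd3e at 3 counts or fewer in every library, summed to 7.47 to 20.7 CPM in control, 5.08 to 8.27 CPM in KO1 and 6.92 to 9.39 CPM in KO2 libraries, and the 5 endothelial markers to at most 4.46 CPM in any library. The third library of each clone stood apart: 12 proliferation genes summed to 241 CPM in KO1 replicate 3 against 1155 and 1393 CPM in the other KO1 libraries, and to 2591 CPM in KO2 replicate 3 against 1441 and 1546 CPM. The part that cell identity and proliferation have in the results on ER genes was not tested. In bulk RNA, fewer cells with a transcript and less of it per cell cannot be told apart.

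The 38 genes did not move one way. In both clones the collagen chaperone Serpinh1, the transcription factor Creb3l1, the COPII adaptor Sec24d, the chaperones Hsp90b1, Dnajb11 and Calr and the isomerases Pdia3, Pdia4 and Pdia6 were higher than in control cells. The sensor Ern1, the transcription factors Xbp1 and Atf4, the Atf4 arm genes Trib3 and Chac1, the degradation genes Herpud1 and Edem1 and the cochaperone Sdf2l1 were lower in both. In KO1 cells 10 of the 38 genes rose and 13 fell past an adjusted p of 0.05, against 29.9% and 30% of all genes tested. In KO2 cells 12 rose and 10 fell, where 25.3% and 26.1% of all genes did. With both clones pooled 10 rose and 6 fell, against 21.7% and 21.2% of all genes, and in this comparison a difference between the clones counts as spread. All 6 clone libraries lay above control for 11 and below it for 9, where 21.2% and 23% of all genes did. The share of the 38 that was called was 60.5% in KO1, 57.9% in KO2 and 42.1% in the pooled comparison, close to the 59.9%, 51.4% and 43% of all genes, so these counts say nothing particular about the group as a whole. All 3 KO1 libraries lay above all control libraries for 11 of the 38 and below them for 16, where 32.9% and 33.1% of all genes did, and KO2 libraries for 14 and 11, where 30.7% and 31.4% did. Without the third library of both clones 9 of the 38 rose and 15 fell in KO1 cells, and 10 rose and 9 fell in KO2 cells. Of all genes 58.7% were then called in KO1 and 52.1% in KO2 cells, with 47.4% and 48.2% of those called higher. The median log2 fold change of the 38 was -0.17 in KO1 and -0.09 in KO2 cells, beside 0.02 and 0.004 over all genes tested. The clones were compared with the same 3 control libraries, so their folds are not independent of each other.

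**Figure D1:**
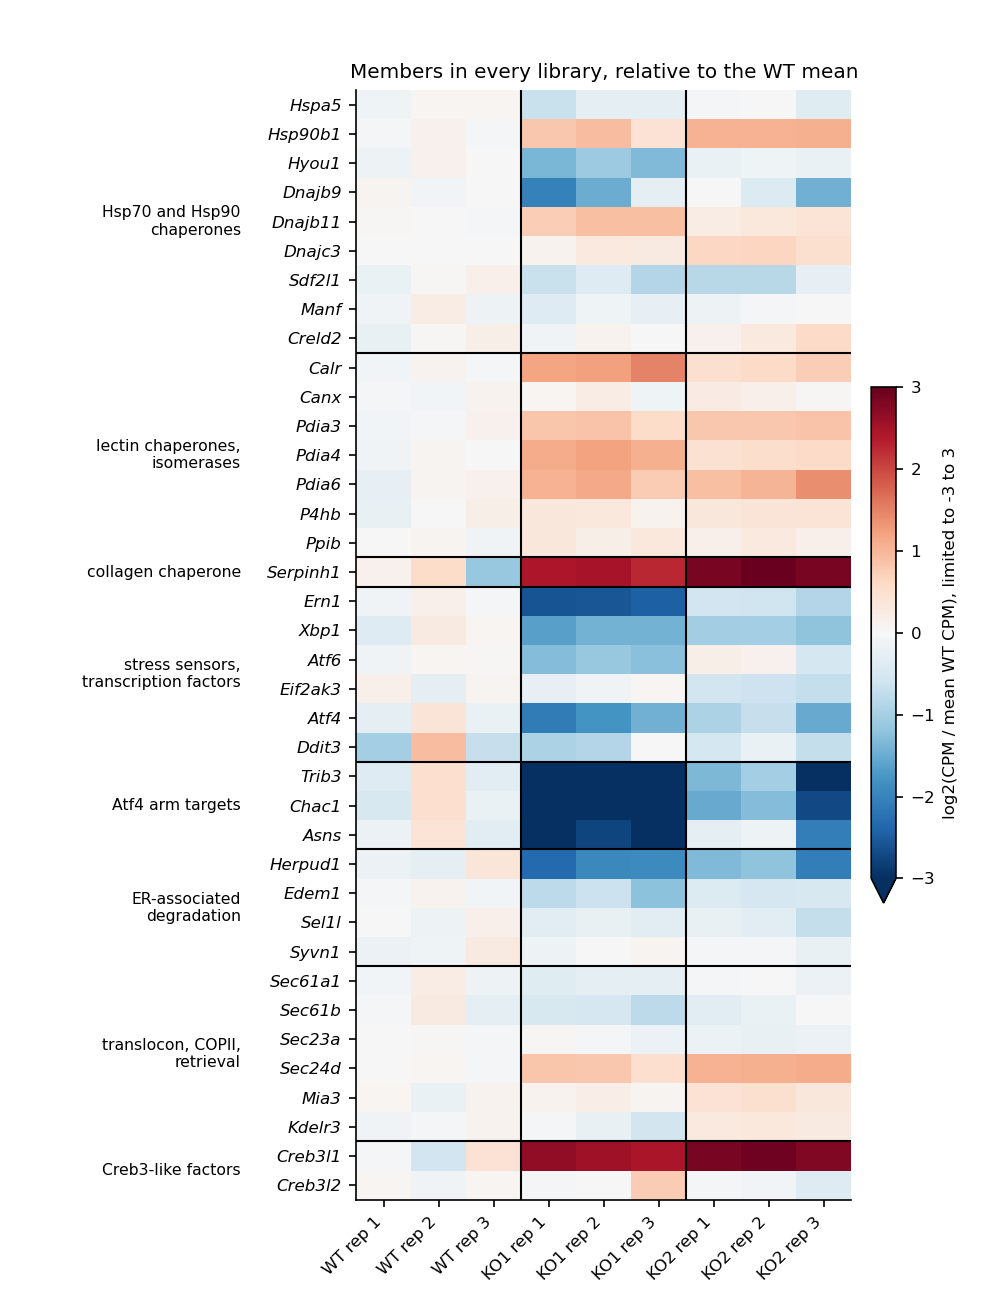
Heat map of the 38 genes (rows, grouped by role) in the 9 libraries (columns), as the log2 ratio of the CPM to the mean of the 3 control libraries, with the colour limited to -3 to 3. Serpinh1 and Creb3l1 are red in all 6 clone libraries, Ern1, Xbp1, Atf4, Trib3, Chac1 and Herpud1 are blue in all 6, and Hyou1 and Atf6 are blue in the 3 KO1 libraries.

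Short sequences that the factors of the response are known to bind were searched in the start regions of these genes, and 6 windows with a match are shown because their genes went different ways. RefSeq promoter windows (GRCm38.p6, 250 bases before to 50 bases after the start) matched 33 of the 38 genes, and Hyou1, Atf6, Creb3l1, Sec61a1 and Manf had none. Capitals mark the matches: the ER stress element (ERSE, CCAAT and CCACG separated by 9 bases) in Hspa5, Hsp90b1 and Pdia6, the second form of it (ERSE-II, ATTGG and CCACG separated by 1 base) and the Atf4 site (TGATGCAA) in Herpud1, the Atf4 site in Chac1, and the core of the unfolded protein response element (UPRE, TGACGTGG) in Sec24d. Both strands were searched, so a match on the opposite strand is printed as its reverse complement, and no match overlapped that of another motif. Of the 33 windows 14 held a match and 19 held none.
Hspa5, chr2:34771840-34772139, plus strand: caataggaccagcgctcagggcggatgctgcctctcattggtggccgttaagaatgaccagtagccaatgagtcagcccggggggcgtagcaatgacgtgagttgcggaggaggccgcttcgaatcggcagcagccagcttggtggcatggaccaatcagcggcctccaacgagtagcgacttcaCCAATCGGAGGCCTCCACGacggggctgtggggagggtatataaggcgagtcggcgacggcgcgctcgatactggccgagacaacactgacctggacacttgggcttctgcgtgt
Hsp90b1, chr10:86705395-86705694, minus strand: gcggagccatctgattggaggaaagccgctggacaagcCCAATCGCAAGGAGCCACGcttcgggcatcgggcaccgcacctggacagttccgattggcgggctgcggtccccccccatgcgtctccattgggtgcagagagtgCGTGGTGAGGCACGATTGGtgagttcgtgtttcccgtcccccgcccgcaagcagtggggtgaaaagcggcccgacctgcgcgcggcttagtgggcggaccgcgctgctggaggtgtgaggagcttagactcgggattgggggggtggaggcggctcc
Pdia6, chr12:17266339-17266638, plus strand: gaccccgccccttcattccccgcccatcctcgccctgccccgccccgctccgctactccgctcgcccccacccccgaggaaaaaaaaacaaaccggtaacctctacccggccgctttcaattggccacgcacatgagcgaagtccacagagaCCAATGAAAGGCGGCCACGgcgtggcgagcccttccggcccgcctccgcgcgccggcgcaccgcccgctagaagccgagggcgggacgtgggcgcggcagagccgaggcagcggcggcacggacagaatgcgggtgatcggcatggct
Herpud1, chr8:94386179-94386478, plus strand: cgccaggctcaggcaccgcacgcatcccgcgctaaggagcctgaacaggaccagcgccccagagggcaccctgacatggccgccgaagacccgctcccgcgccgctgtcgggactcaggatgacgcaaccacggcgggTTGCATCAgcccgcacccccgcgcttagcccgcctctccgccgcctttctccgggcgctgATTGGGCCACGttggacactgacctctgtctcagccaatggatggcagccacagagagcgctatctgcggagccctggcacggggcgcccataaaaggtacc
Chac1, chr2:119350992-119351291, plus strand: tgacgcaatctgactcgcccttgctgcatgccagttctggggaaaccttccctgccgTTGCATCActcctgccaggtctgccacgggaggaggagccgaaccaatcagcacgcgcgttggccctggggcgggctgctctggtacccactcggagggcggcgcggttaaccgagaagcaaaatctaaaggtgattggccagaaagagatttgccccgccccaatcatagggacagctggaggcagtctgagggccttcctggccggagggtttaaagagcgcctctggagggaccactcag
Sec24d, chr3:123267246-123267545, plus strand: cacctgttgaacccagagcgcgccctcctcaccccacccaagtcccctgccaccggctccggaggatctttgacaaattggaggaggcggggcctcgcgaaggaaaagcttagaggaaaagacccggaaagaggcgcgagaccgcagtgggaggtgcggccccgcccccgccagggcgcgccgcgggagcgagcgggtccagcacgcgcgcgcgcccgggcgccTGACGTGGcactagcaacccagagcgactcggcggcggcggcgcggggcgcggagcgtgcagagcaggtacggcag
ERSE was found in 8 of the 33 windows, of Hspa5, Hsp90b1, Dnajc3, Creld2, Calr, Canx, Pdia6 and Syvn1, and in 0.119% of all 32851 windows. ERSE-II was found in Herpud1 and Dnajb11 and in 0.0365% of all windows, the UPRE core in Sec24d, Sec23a and Kdelr3 and in 0.676%, and the Atf4 site in Chac1 and Herpud1 and in 0.895%. The genes and the motifs were both chosen for the same response, so these shares describe the windows and are no test of enrichment. Counted from the RefSeq start, the match of Hspa5 began 65 bases before it, those of Hsp90b1 212 and 107 bases and that of Pdia6 98 bases before it. Another annotation can place the start elsewhere: GENCODE vM21 starts Hspa5 at 34771970, ahead of its match. The last 45 bases of the window lay in a GENCODE transcript of the same gene for 22 of the 33. Of the 8 genes with ERSE, Hsp90b1, Calr and Pdia6 rose in both clones, Dnajc3 rose in KO2 cells, Hspa5 fell in KO1 cells, and Creld2, Canx and Syvn1 passed the test in neither, so genes with this match did not move one way. Of the genes with ERSE-II, Dnajb11 rose and Herpud1 fell in both clones. Only exact matches to the printed letters were searched, so a window without a match can still hold a variant of a site. A match is a description of the sequence and not a bound site, and no binding was measured here.

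**Figure D2:**
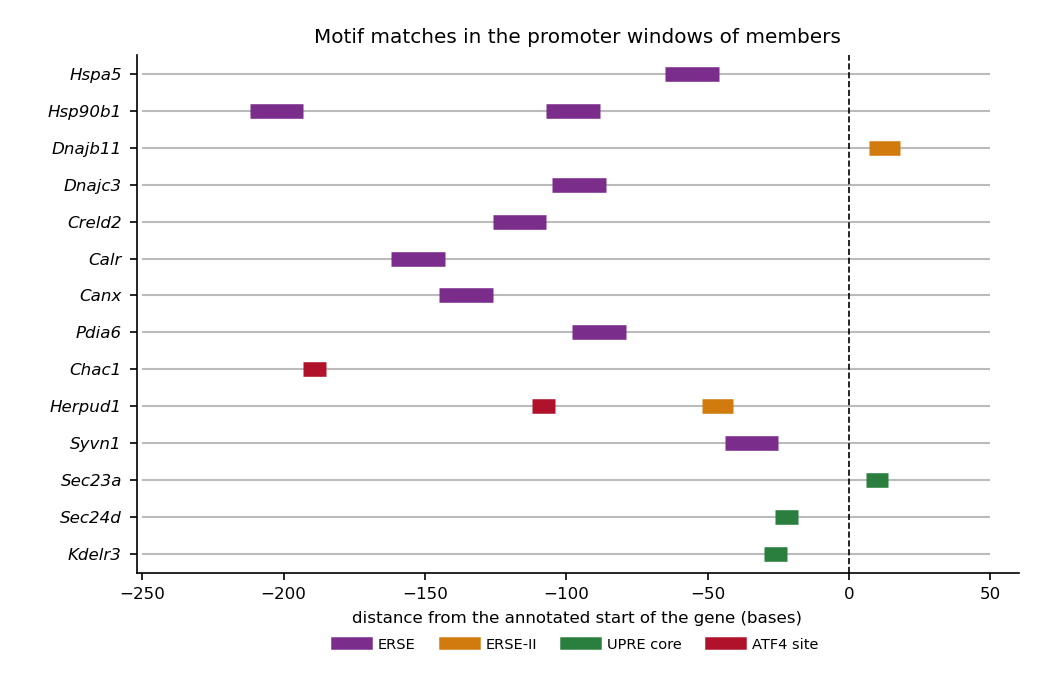
Positions of the 4 motifs in the windows of the 14 genes with a match; the horizontal axis is the distance from the start annotated by RefSeq in bases, a grey line is a window and a coloured bar a match. ERSE matches lie before the RefSeq start in all 8 genes that hold one, and the matches of Dnajb11 and Sec23a lie after it.

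The group of the Hsp70 and Hsp90 systems held 9 genes, with the stress-induced Manf and Creld2 counted among them. In KO1 cells 2 of the 9 rose and 3 fell, and in KO2 cells 3 rose and 1 fell. The shares called were 55.6% and 44.4%, beside 59.9% and 51.4% of all genes. Hsp90b1 (Grp94), the Hsp90 of the ER that folds integrins and Toll-like receptors, read 657, 749.5 and 658 CPM in the control libraries. Hsp90b1 stood at 1197, 1304 and 936 CPM in KO1 and 1411, 1427 and 1439 CPM in KO2 libraries. All 6 clone libraries lay above the controls, and the log2 fold change was 0.74 (95% interval 0.41 to 1.06, adjusted p = 0.0017) in KO1 and 1.05 (95% interval 0.73 to 1.38, adjusted p = 2.4e-04) in KO2 cells. Hspa5 (BiP), the Hsp70 of the ER and a usual readout of its stress, read 1321, 1497 and 1502 CPM in the control libraries. Hspa5 stood at 913, 1182 and 1171 CPM in KO1 and 1394, 1441 and 1119 CPM in KO2 libraries. KO1 libraries lay below the controls and KO2 libraries overlapped them, with log2 fold changes of -0.40 (95% interval -0.75 to -0.06, adjusted p = 0.045) and -0.13 (95% interval -0.47 to 0.22, adjusted p = 0.51). The call in KO1 cells was lost when WT replicate 1, 2 or 3, KO1 replicate 1 or 2, or KO2 replicate 2 was left out, with values from -0.47 to -0.34 and adjusted p up to 0.10. Hyou1 (Grp170), the nucleotide exchange factor of BiP, read 297, 361 and 333 CPM in the control libraries. Hyou1 stood at 128, 154 and 133 CPM in KO1 and 286, 303 and 286 CPM in KO2 libraries. It fell in KO1 cells, at -1.26 (95% interval -1.52 to -0.99, adjusted p = 1.8e-05), while KO2 libraries overlapped control at -0.18 (95% interval -0.44 to 0.08), and the log2 difference of KO1 from KO2 was -1.08 (95% interval -1.34 to -0.81, adjusted p = 1.9e-04).

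The cochaperones of BiP with a J domain did not move together. Dnajb11 (ERdj3), which hands nascent chains to BiP, read 110.2, 109 and 104 CPM in the control libraries. Dnajb11 stood at 180.1, 201 and 201 CPM in KO1 and 125.43, 133 and 143 CPM in KO2 libraries. Both clones lay above control, with log2 fold changes of 0.85 (adjusted p = 6.4e-05) in KO1 and 0.31 (adjusted p = 0.023) in KO2, and KO1 exceeded KO2 by 0.53 (95% interval 0.32 to 0.75, adjusted p = 0.0026). The call in KO2 cells ended, with adjusted p from 0.054 to 0.083, when any 1 of the control libraries or KO2 replicate 2 or 3 was left out, the smallest value being 0.25 without KO2 replicate 3. Dnajc3 (p58IPK), an inhibitor of Perk and cochaperone of BiP, read 87.5, 88.5 and 89.9 CPM in the control libraries. Dnajc3 stood at 95.3, 108 and 106 CPM in KO1 and 136, 139 and 123 CPM in KO2 libraries. KO2 cells rose by 0.58 (95% interval 0.37 to 0.80, adjusted p = 6.9e-04) on the log2 scale, and KO1 cells stood at 0.22 (95% interval 0.01 to 0.44, adjusted p = 0.068) with all 3 libraries just above control. The difference of KO1 from KO2 was -0.36 (adjusted p = 0.015), and -0.34 (adjusted p = 0.060) without KO2 replicate 2. Dnajb9 (ERdj4), which returns misfolded chains for degradation and represses Ire1, read 47.2, 42.3 and 45.02 CPM in the control libraries. Dnajb9 stood at 10.98, 15.97 and 36.4 CPM in KO1 and 45.4, 33.98 and 16.5 CPM in KO2 libraries. The spread within each clone was wide, with the third library the highest in KO1 and the lowest in KO2. Neither fold passed, at -1.09 (95% interval -2.10 to -0.08, adjusted p = 0.061) in KO1 and -0.49 (95% interval -1.49 to 0.51, adjusted p = 0.39) in KO2. Without KO1 replicate 3 the fold of KO1 was -1.73 (adjusted p = 0.0037) and the difference of KO1 from KO2 -1.24 (adjusted p = 0.029). Without KO2 replicate 1 or 3 the fold of KO1 also passed (adjusted p = 0.046 and 0.030). Of its sequence, 5.13% in 31-base words is shared with other genes.

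Sdf2l1, which keeps BiP clients soluble, was lower in both clones. It read 33.7, 39.2 and 42.8 CPM in the control libraries. Sdf2l1 stood at 24.1, 29.3 and 21.1 CPM in KO1 and 21.6, 21.7 and 32.4 CPM in KO2 libraries. No clone library reached the lowest control library, and the log2 fold change was -0.63 (95% interval -1.07 to -0.20, adjusted p = 0.018) in KO1 and -0.61 (95% interval -1.05 to -0.17, adjusted p = 0.025) in KO2. The call of KO1 ended without WT replicate 3 or KO1 replicate 3 (adjusted p = 0.056 and 0.055), and that of KO2 without WT replicate 2 or 3 or KO2 replicate 1 or 2 (adjusted p up to 0.10). Manf, a secreted factor induced by ER stress, ranged from 136 to 176 CPM in the clones and overlapped control, with folds of -0.25 (95% interval -0.53 to 0.04) and -0.06 (95% interval -0.35 to 0.22). For Creld2, another stress-induced ER protein, the intervals were -0.33 to 0.32 in KO1 and 0.02 to 0.66 in KO2, and the KO2 value of 0.34 did not pass (adjusted p = 0.074).

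Of the 7 lectin chaperones and isomerases, 5 rose in KO1 and 5 in KO2 cells and 0 fell, where 29.9% and 25.3% of all genes rose. Canx passed in neither clone, P4hb did not pass in KO1 and Ppib did not pass in KO2, and the median log2 fold change was 0.75 and 0.52. Calr (calreticulin), the soluble lectin that binds glycoproteins and calcium, read 625, 719 and 650.3 CPM in the control libraries. Calr stood at 1498, 1569.9 and 1855 CPM in KO1 and 932, 989 and 1117 CPM in KO2 libraries. The 3 groups did not overlap, and the log2 fold change was 1.30 (95% interval 0.997 to 1.61, adjusted p = 3.4e-05) in KO1 and 0.61 (95% interval 0.30 to 0.91, adjusted p = 0.0043) in KO2, with KO1 above KO2 by 0.70 (adjusted p = 0.0035). Canx (calnexin), its membrane-bound relative, read 576, 564 and 639 CPM in the control libraries. Canx stood at 617, 691 and 546 CPM in KO1 and 700.4, 656 and 604 CPM in KO2 libraries. The groups overlapped, and the fold was 0.06 (95% interval -0.23 to 0.35) in KO1 and 0.14 (95% interval -0.15 to 0.43) in KO2 cells.

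Pdia3 (ERp57), the isomerase that works with both lectins, read 611, 615 and 707 CPM in the control libraries. Pdia3 stood at 1155, 1160.3 and 946 CPM in KO1 and 1132, 1124 and 1175 CPM in KO2 libraries. Every clone library exceeded the controls and the clones overlapped each other, with folds of 0.75 (adjusted p = 6.9e-04) and 0.83 (adjusted p = 4.9e-04). Pdia4 (ERp72) read 175, 199 and 188 CPM in the control libraries. Pdia4 stood at 407, 433 and 390.0 CPM in KO1 and 257, 269.8 and 277 CPM in KO2 libraries. The groups were separate, at 1.13 (adjusted p = 1.4e-05) in KO1 and 0.52 (adjusted p = 0.0022) in KO2, and the difference of KO1 from KO2 was 0.61 (95% interval 0.38 to 0.84, adjusted p = 0.0017). Pdia6 (P5), which also attenuates Ire1, read 158, 196 and 204 CPM in the control libraries. Pdia6 stood at 382, 409 and 317 CPM in KO1 and 349, 375 and 492 CPM in KO2 libraries. Both clones lay above control, at 0.99 (adjusted p = 8.0e-04) and 1.12 (adjusted p = 4.7e-04), and the difference between them was -0.13 (95% interval -0.51 to 0.25). P4hb, a disulfide isomerase that is also the beta subunit of collagen prolyl 4-hydroxylase, read 1329, 1573 and 1750.1 CPM in the control libraries. P4hb stood at 1950.4, 1917 and 1658 CPM in KO1 and 1966, 2032 and 2067 CPM in KO2 libraries. KO2 rose by 0.38 (adjusted p = 0.044) on the log2 scale, and KO1 stood at 0.25 (95% interval -0.06 to 0.56) with KO1 replicate 3 inside the control range. The KO2 call ended when WT replicate 1 or 2, KO1 replicate 1 or 2, or any KO2 library was left out, the smallest value being 0.28 and the adjusted p up to 0.17. Ppib (cyclophilin B), the prolyl isomerase of collagen folding, read 246, 263 and 231 CPM in the control libraries. Ppib stood at 314, 278 and 307 CPM in KO1 and 272, 301 and 276 CPM in KO2 libraries. All clone libraries lay above control by a small margin, at 0.28 (adjusted p = 0.045) in KO1 and 0.20 (adjusted p = 0.15) in KO2. The KO1 call was kept only without KO1 replicate 2, and leaving out any other single library gave an adjusted p of up to 0.20 (fold 0.20, without KO1 replicate 1). In 31-base words 9.29% of Ppib is shared with other genes.

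Serpinh1 (Hsp47), the chaperone that binds the collagen triple helix, read 289, 386 and 121 CPM in the control libraries. Serpinh1 stood at 1433, 1461 and 1262 CPM in KO1 and 1919.6, 2067 and 1921 CPM in KO2 libraries. The clone libraries were far above control, the control libraries were spread widely with WT replicate 3 lowest, and KO2 libraries lay above KO1 libraries. The mean went from 265 ± 134 CPM (SD, n = 3) in control to 1385 ± 108 CPM (SD, n = 3) in KO1 and 1969 ± 84.6 CPM (SD, n = 3) in KO2 cells. Log2 fold changes were 2.39 (95% interval 1.60 to 3.17, adjusted p = 2.8e-04) and 2.89 (95% interval 2.09 to 3.69, adjusted p = 1.2e-04), and the difference of KO1 from KO2 was -0.51 (95% interval -1.25 to 0.24, adjusted p = 0.25). That difference passed without WT replicate 3, at -0.51 (adjusted p = 0.022), and in a fit on the 6 clone libraries alone, at -0.53 (adjusted p = 0.016). The gene lies on the minus strand of chromosome 7 at 99345376 to 99353239 (GRCm38), and its window held none of the 4 motifs. Collagen mRNAs were read in the same libraries: of 35 collagen chains tested, 22 rose and 7 fell in KO1 cells and 21 rose and 7 fell in KO2 cells. Of all genes 29.9% rose and 30% fell in KO1, and 25.3% and 26.1% in KO2 cells. Their summed level ran from 4084 to 5443 CPM in control, 24191 to 26354 CPM in KO1 and 16509 to 17365 CPM in KO2 libraries. Col1a1 read 107, 136 and 54.95 CPM in the control libraries. Col1a1 stood at 8607, 7779.7 and 9204 CPM in KO1 and 5008, 4998 and 4199 CPM in KO2 libraries. Col1a1 was higher in KO1 than in KO2 (log2 difference 0.85, adjusted p = 0.039), while Serpinh1 libraries were ordered the other way. Among the largest changes of the list, Col8a1 stood at 6.78 in KO1 and 5.88 in KO2, and the basement membrane chains Col15a1, Col4a3 and Col4a4 at -7.86, -5.49 and -4.99 in KO1 and -7.05, -6.75 and -6.06 in KO2.

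Creb3l1 (OASIS), an ER membrane-bound transcription factor known to drive type I collagen genes in bone, read 15.6, 10.6 and 21.4 CPM in the control libraries. Creb3l1 stood at 100.4, 92.1 and 86.1 CPM in KO1 and 114, 119 and 109 CPM in KO2 libraries. The clone libraries did not approach control, and the log2 fold change was 2.55 (95% interval 2.05 to 3.04, adjusted p = 1.0e-05) in KO1 and 2.85 (95% interval 2.34 to 3.35, adjusted p = 7.2e-06) in KO2. The clones did not differ past the threshold, at -0.30 (95% interval -0.77 to 0.17), but did in a fit on the 6 clone libraries alone, at -0.32 (adjusted p = 0.037). Creb3l2 (BBF2H7), the relative that drives export genes in cartilage, read 138, 123 and 138 CPM in the control libraries. Creb3l2 stood at 129, 135 and 223 CPM in KO1 and 127, 126 and 101 CPM in KO2 libraries. KO1 replicate 3 was far above every other library, the groups overlapped, and the folds were 0.29 (95% interval -0.17 to 0.75) and -0.17 (95% interval -0.63 to 0.29). Without KO1 replicate 3 the fold of KO1 was -0.0041.

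Of the 6 genes of the translocon, COPII export and retrieval, 1 rose and 1 fell in KO1 cells, and 2 rose and 0 fell in KO2 cells. At 33.3% and 33.3% called, these genes lay under the 59.9% and 51.4% of all genes. Sec24d, the COPII adaptor whose loss impairs collagen export, read 84.9, 89.3 and 84.6 CPM in the control libraries. Sec24d stood at 153, 150.2 and 123 CPM in KO1 and 179, 180.2 and 187 CPM in KO2 libraries. Both clones lay above control and KO2 above KO1, with folds of 0.72 (95% interval 0.48 to 0.96, adjusted p = 3.2e-04) and 1.08 (95% interval 0.84 to 1.32, adjusted p = 3.2e-05) and a difference of KO1 from KO2 of -0.36 (adjusted p = 0.025). The difference did not pass without KO1 replicate 3, KO2 replicate 2 or KO2 replicate 3 (adjusted p = 0.056, 0.069 and 0.055). Sec23a, the coat partner of Sec24d, read 51.9, 53.98 and 51.6 CPM in the control libraries. Sec23a stood at 53.8, 51.6 and 46.1 CPM in KO1 and 46.5, 44.7 and 46.2 CPM in KO2 libraries. All KO2 libraries lay below control and KO1 libraries overlapped it. Neither fold passed, at -0.06 (95% interval -0.26 to 0.15, adjusted p = 0.63) in KO1 and -0.20 (95% interval -0.41 to 0.01, adjusted p = 0.10) in KO2, but the KO2 value passed with DESeq2 (-0.23, adjusted p = 0.023), with upper-quartile factors (adjusted p = 0.038) and with a demand for 1 CPM on average (adjusted p = 0.041). Mia3 (TANGO1), which loads procollagen into COPII carriers, read 150.1, 124.98 and 155 CPM in the control libraries. Mia3 stood at 153, 164 and 152 CPM in KO1 and 195, 201 and 181 CPM in KO2 libraries. KO2 rose by 0.42 (95% interval 0.17 to 0.67, adjusted p = 0.010) on the log2 scale, and KO1 overlapped control at 0.12 (95% interval -0.13 to 0.37). The KO2 call ended without the filter on low counts, at 0.39 (adjusted p = 0.060).

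Kdelr3, a receptor that returns escaped ER proteins from the Golgi, read 47.7, 50.2 and 55.4 CPM in the control libraries. Kdelr3 stood at 49.7, 44.1 and 34.8 CPM in KO1 and 62.6, 63.4 and 62.05 CPM in KO2 libraries. Neither fold passed, at -0.25 (95% interval -0.55 to 0.05) in KO1 and 0.30 (95% interval -0.0033 to 0.59) in KO2, but KO1 differed from KO2 by a log2 difference of -0.55 (95% interval -0.85 to -0.25, adjusted p = 0.010), all KO1 libraries being below all KO2 libraries. The KO1 fold passed without KO1 replicate 1 (-0.42, adjusted p = 0.034) and the KO2 fold without KO1 replicate 3 (0.30, adjusted p = 0.023). Sec61a1, the pore of the translocon, read 420.0, 518 and 404 CPM in the control libraries. Sec61a1 stood at 347, 368 and 373 CPM in KO1 and 431, 449 and 398 CPM in KO2 libraries. The fold was -0.30 (95% interval -0.58 to -0.02) in KO1, where all libraries lay below control, and -0.07 (95% interval -0.35 to 0.21) in KO2. The KO1 fold passed without WT replicate 3, KO2 replicate 1 or KO2 replicate 3 (adjusted p = 0.035, 0.041 and 0.032). Sec61b, a small subunit of the channel, read 87.3, 109 and 75.2 CPM in the control libraries. Sec61b stood at 64.4, 63.5 and 52.1 CPM in KO1 and 71.5, 78.9 and 89.8 CPM in KO2 libraries. It fell in KO1, at -0.59 (95% interval -0.94 to -0.24, adjusted p = 0.0089), and stood at -0.18 (95% interval -0.53 to 0.17) in KO2. Of its 31-base words 18.4% occur in other genes. Gm10320, which shared the most (16.7%), had at most 1 count in any library, and the effect of the sharing on Sec61b counts was not tested.

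**Figure D3:**
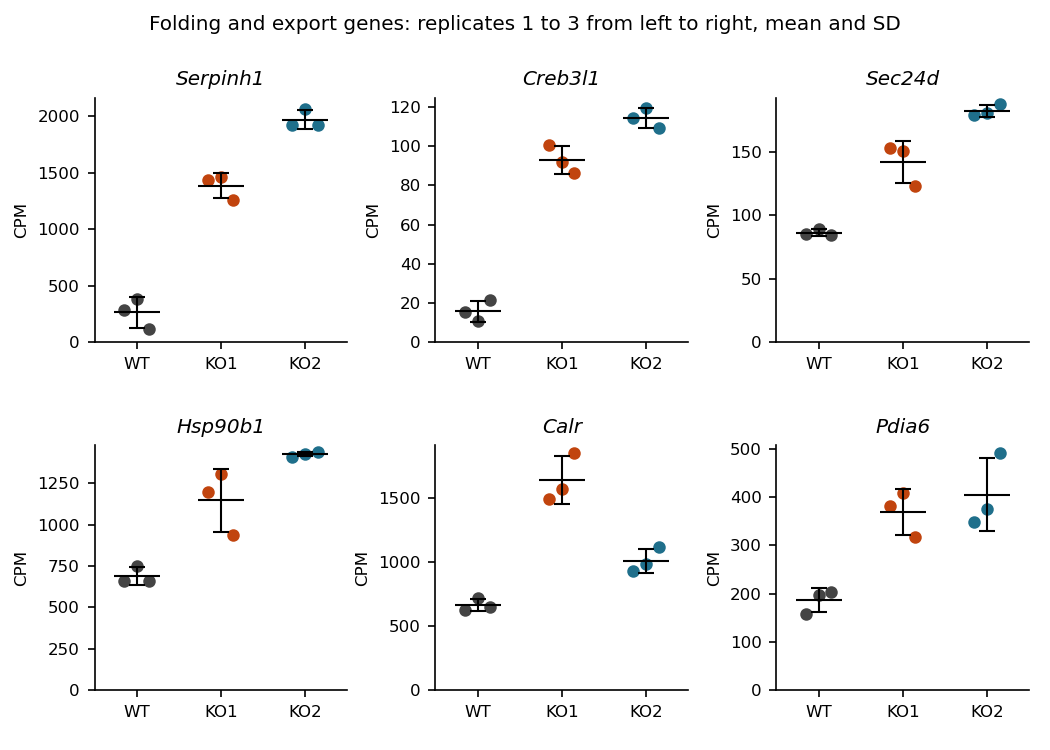
CPM of Serpinh1, Creb3l1, Sec24d, Hsp90b1, Calr and Pdia6 in the 3 control (WT), 3 KO1 and 3 KO2 libraries on linear axes from 0; each point is a library, the wide bar the mean and the whiskers the SD (n = 3). In all 6 panels every clone library lies above every control library, all KO2 libraries lie above all KO1 libraries for Serpinh1, Creb3l1, Sec24d and Hsp90b1, and all KO1 libraries above all KO2 libraries for Calr.

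Of the 6 stress sensors and their transcription factors, 4 fell in KO1 and 4 in KO2 cells, and 0 rose in either, where 30% and 26.1% of all genes fell. Ern1 (Ire1), the sensor that splices Xbp1 mRNA, read 164, 196 and 168 CPM in the control libraries. Ern1 stood at 29.2, 29.8 and 32.1 CPM in KO1 and 118, 117 and 96.4 CPM in KO2 libraries. The 3 groups were separate, and the log2 fold change was -2.53 (95% interval -2.81 to -2.26, adjusted p = 3.5e-07) in KO1 and -0.67 (95% interval -0.94 to -0.41, adjusted p = 0.0010) in KO2, and the log2 difference of KO1 from KO2 was -1.86 (95% interval -2.13 to -1.59, adjusted p = 9.1e-06). With the clones pooled it was -1.32 (adjusted p = 0.059), which did not pass although all 6 clone libraries lay below control. The pooled value passed without KO2 replicate 1 or KO2 replicate 2, at -1.55 and -1.53 (adjusted p = 0.041 for both). Xbp1, the transcription factor downstream of Ire1, read 186, 293 and 256 CPM in the control libraries. Xbp1 stood at 79.8, 91.4 and 91.1 CPM in KO1 and 119, 120.0 and 106 CPM in KO2 libraries. Every clone library was below control, at -1.49 (95% interval -1.85 to -1.12, adjusted p = 4.7e-05) and -1.09 (95% interval -1.46 to -0.73, adjusted p = 3.9e-04), and KO1 libraries were below KO2 libraries, at a log2 difference of -0.40 (95% interval -0.76 to -0.03, adjusted p = 0.079). That difference passed without WT replicate 1 or WT replicate 2 (adjusted p = 0.030 and 0.031) and in a fit on the 6 clone libraries alone (adjusted p = 0.016).

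Atf6, the sensor that is cleaved in the Golgi, read 147, 165 and 162 CPM in the control libraries. Atf6 stood at 64.6, 71.8 and 66.7 CPM in KO1 and 178, 173 and 110.2 CPM in KO2 libraries. It fell in KO1, at -1.22 (95% interval -1.61 to -0.84, adjusted p = 2.2e-04), and overlapped control in KO2, where KO2 replicate 3 was well below the other KO2 libraries and the fold was -0.04 (95% interval -0.42 to 0.34). The log2 difference of KO1 from KO2 was -1.18 (adjusted p = 8.0e-04). Eif2ak3 (Perk), the kinase that phosphorylates eIF2 alpha, read 60.4, 45.03 and 57.6 CPM in the control libraries. Eif2ak3 stood at 45.5, 50.6 and 56.95 CPM in KO1 and 36.5, 35.4 and 33.03 CPM in KO2 libraries. It fell in KO2, at -0.64 (95% interval -0.94 to -0.33, adjusted p = 0.0034), and overlapped control in KO1, at -0.09 (95% interval -0.39 to 0.21), and the difference of KO1 from KO2 was 0.54 (adjusted p = 0.011), or 0.47 (adjusted p = 0.058) without KO2 replicate 3.

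Atf4, the transcription factor whose translation rises when Perk or another eIF2 alpha kinase is active, read 868, 1349.9 and 901 CPM in the control libraries. Atf4 stood at 244, 298 and 385 CPM in KO1 and 534, 643 and 366 CPM in KO2 libraries. Every clone library was below control, WT replicate 2 was the highest of all, and the folds were -1.75 (95% interval -2.35 to -1.15, adjusted p = 3.6e-04) in KO1 and -1.02 (95% interval -1.60 to -0.43, adjusted p = 0.0091) in KO2. The log2 difference of KO1 from KO2 was -0.74 (adjusted p = 0.049) although KO1 replicate 3 exceeded KO2 replicate 3, and that call ended without WT replicate 1 or 3, KO1 replicate 1 or 2, or KO2 replicate 1 or 2 (adjusted p from 0.055 to 0.17). Ddit3 (Chop), the factor of the late, death-prone phase, read 28.8, 110.5 and 36.3 CPM in the control libraries. Ddit3 stood at 30.5, 32.03 and 59.4 CPM in KO1 and 40.5, 51.2 and 35.9 CPM in KO2 libraries. WT replicate 2 was the highest library and the groups overlapped, with folds of -0.52 (95% interval -1.59 to 0.54) and -0.46 (95% interval -1.52 to 0.61). Without WT replicate 2 the folds were 0.25 (adjusted p = 0.50) and 0.36 (adjusted p = 0.35), so the direction rested on that library.

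All 3 targets of the Atf4 arm fell in KO1 cells and 2 of them in KO2 cells, and the falls of Trib3 and Chac1 were the largest of the 38 in both clones. Of all genes 30% fell in KO1 and 26.1% in KO2 cells. Trib3, a pseudokinase that feeds back on Atf4, read 318, 591 and 334 CPM in the control libraries. Trib3 stood at 4.84, 6.27 and 4.01 CPM in KO1 and 163, 205 and 35.5 CPM in KO2 libraries. The 3 groups were separate, KO2 replicate 3 was far below the other KO2 libraries, and the fold was -6.36 (95% interval -7.84 to -4.88, adjusted p = 3.2e-05) in KO1 and -1.62 (95% interval -2.82 to -0.43, adjusted p = 0.028) in KO2. The KO2 call ended without WT replicate 2 (-1.31, adjusted p = 0.087). With the clones pooled the value was -2.57 (adjusted p = 0.11). Chac1, an enzyme that breaks down glutathione, read 84.7, 167 and 103 CPM in the control libraries. Chac1 stood at 4.99, 7.74 and 4.45 CPM in KO1 and 41.2, 48.4 and 18.03 CPM in KO2 libraries. The groups were separate, with folds of -4.36 (95% interval -5.34 to -3.39, adjusted p = 2.5e-05) and -1.72 (95% interval -2.59 to -0.85, adjusted p = 0.0046), and the pooled value of -2.51 (adjusted p = 0.022) did not pass without WT replicate 2 (-2.21, adjusted p = 0.083). Its window, printed above, holds an exact match to the Atf4 site, and variants of that site were not searched in any window. Asns, asparagine synthetase, read 355, 538 and 316 CPM in the control libraries. Asns stood at 46.7, 59.4 and 28.1 CPM in KO1 and 329.9, 359.9 and 95.7 CPM in KO2 libraries. It fell in KO1, at -3.17 (95% interval -4.28 to -2.06, adjusted p = 4.4e-04), whereas in KO2 cells replicates 1 and 2 lay within the control range and replicate 3 below it, at -0.62 (95% interval -1.65 to 0.41, adjusted p = 0.28). KO1 was below KO2 for all 3 genes, at log2 differences of -4.73 (95% interval -6.11 to -3.36, adjusted p = 4.2e-04) for Trib3, -2.64 (95% interval -3.55 to -1.73, adjusted p = 0.0011) for Chac1 and -2.55 (95% interval -3.63 to -1.46, adjusted p = 0.0031) for Asns. Since KO2 replicate 3 carried the lowest Atf4, Trib3, Chac1 and Asns and the highest proliferation genes of KO2 cells, values were also taken without the third library of both clones, an alternative chosen after the data were seen. The fold of KO2 was then -0.83 (adjusted p = 0.011) for Atf4, -1.18 (adjusted p = 0.0081) for Trib3, -1.41 (adjusted p = 0.0051) for Chac1 and -0.23 (adjusted p = 0.40) for Asns, and that of KO1 was -6.24 (adjusted p = 5.1e-06) for Trib3 and -2.95 (adjusted p = 3.2e-05) for Asns.

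**Figure D4:**
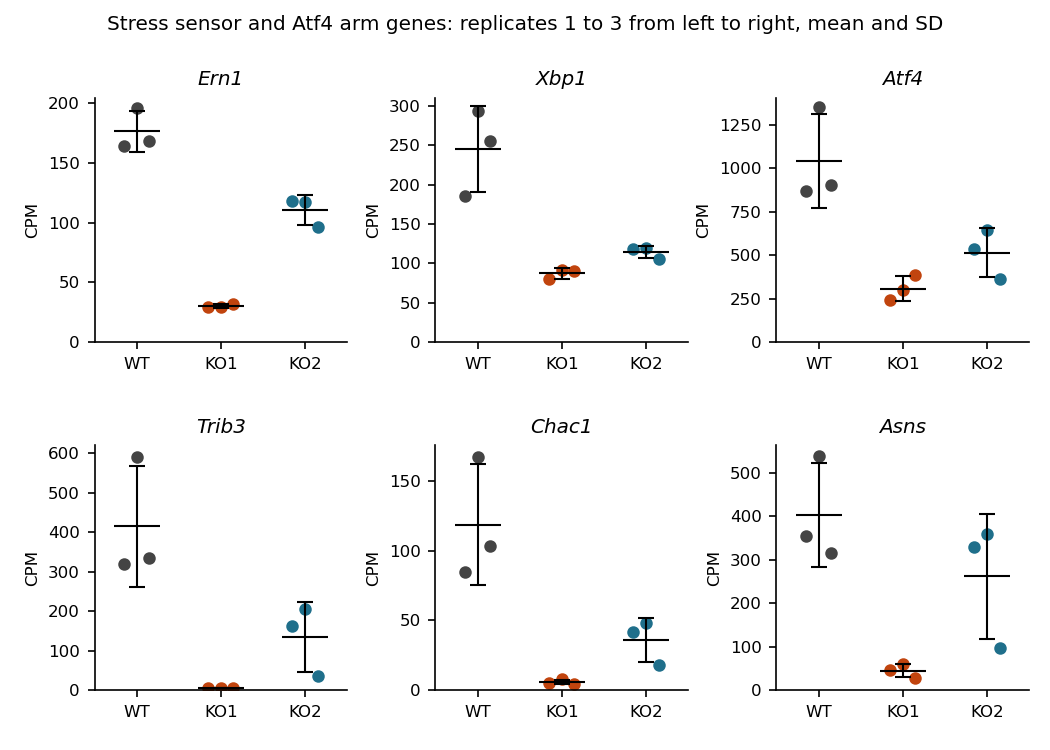
CPM of Ern1, Xbp1, Atf4, Trib3, Chac1 and Asns in the 3 control (WT), 3 KO1 and 3 KO2 libraries on linear axes from 0; each point is a library, the wide bar the mean and the whiskers the SD (n = 3). KO1 libraries lie below control in all 6 panels, and KO2 replicate 3 (right-hand point) is the lowest KO2 library in each.

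Of the 4 genes of ER-associated degradation, 2 fell in KO1 and 3 in KO2 cells and 0 rose in either, where 30% and 26.1% of all genes fell. The share called was 50% in KO1 and 75% in KO2 cells, beside 59.9% and 51.4% of all genes. With 4 genes, 1 call decides on which side such a share falls. Herpud1, which assembles the degradation complex and carries both an ERSE-II and an Atf4 site in the window printed above, read 169, 157 and 244 CPM in the control libraries. Herpud1 stood at 38.002, 49.5 and 50.3 CPM in KO1 and 75.8, 82.8 and 44.9 CPM in KO2 libraries. Every clone library was below control, at -2.05 (95% interval -2.63 to -1.47, adjusted p = 1.1e-04) and -1.49 (95% interval -2.05 to -0.92, adjusted p = 8.8e-04). The difference of KO1 from KO2 was -0.56 (adjusted p = 0.10), and -0.82 (adjusted p = 0.020) without KO2 replicate 3. Edem1, which selects misfolded glycoproteins for removal, read 87.1, 96.8 and 84.4 CPM in the control libraries. Edem1 stood at 52.1, 57.6 and 38.1 CPM in KO1 and 66.8, 63.2 and 63.8 CPM in KO2 libraries. It was below control in both clones, at -0.86 (adjusted p = 7.3e-04) and -0.47 (adjusted p = 0.022). The KO2 call ended without WT replicate 1 or 2 or any 1 of the KO2 libraries (fold from -0.50 to -0.44, adjusted p up to 0.073). Sel1l, the adaptor of the ubiquitin ligase Syvn1, read 124.60, 114 and 140.2 CPM in the control libraries. Sel1l stood at 100.3, 108 and 102 CPM in KO1 and 108, 102 and 77.5 CPM in KO2 libraries. All clone libraries lay below control, at -0.29 (adjusted p = 0.098) in KO1 and -0.40 (adjusted p = 0.037) in KO2, and the KO2 call ended without WT replicate 1 or 3, KO1 replicate 1 or 2, or KO2 replicate 2 or 3 (smallest fold -0.28, adjusted p up to 0.12). The KO1 fold passed without WT replicate 2 or KO2 replicate 3 (adjusted p = 0.035 and 0.029). Syvn1 (Hrd1), the ligase itself, read 115, 118 and 157 CPM in the control libraries. Syvn1 stood at 117, 132 and 138 CPM in KO1 and 124.50, 127 and 112 CPM in KO2 libraries. The groups overlapped, and the intervals of the fold were -0.32 to 0.29 in KO1 and -0.41 to 0.21 in KO2.

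**Figure D5:**
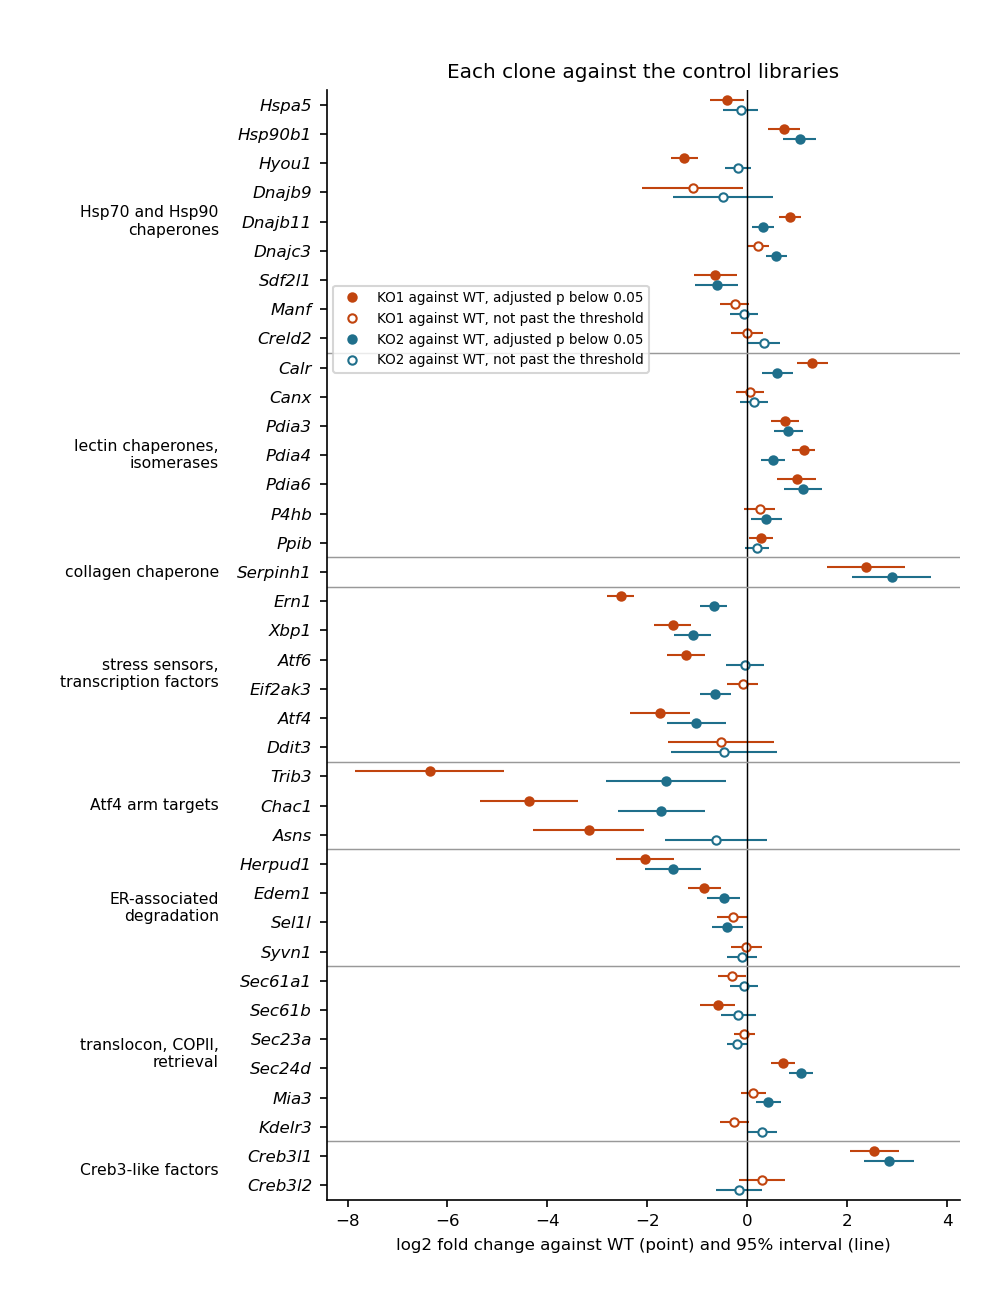
Log2 fold change of each of the 38 genes (rows, grouped by role) in KO1 and in KO2 cells against the same 3 control libraries; points are estimates, filled where the adjusted p is below 0.05, and lines are 95% intervals. Trib3 in KO1 lies at -6.36, Serpinh1 and Creb3l1 lie above 2 in both clones, and the intervals of Canx, Manf and Syvn1 include 0 in both.

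The clones were compared directly on the same genes. KO1 exceeded KO2 in 4 of the 38 and lay below it in 10, where 20.2% and 18.5% of all genes did. In either direction 36.8% of the 38 were called, beside 38.7% of all genes. All KO1 libraries lay above all KO2 libraries for 5 of the 38 and below them for 19, against 28.7% and 26.2% of all genes. The 4 were Dnajb11, Calr, Pdia4 and Eif2ak3, and the 10 were Hyou1, Dnajc3, Ern1, Atf6, Atf4, Trib3, Chac1, Asns, Sec24d and Kdelr3. The median log2 difference of the 38 was -0.30, beside 0.04 over all genes tested.

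Further genes of each branch were read beside the 38. Those named are among the 3 largest increases and decreases of each list in the pooled comparison. Over all genes tested the share called was 59.9% in KO1 and 51.4% in KO2 cells. Of 36 other ER folding genes tested, 17 rose and 7 fell in KO1 cells and 19 rose and 7 fell in KO2 cells, which is 66.7% and 72.2% called, and the median log2 fold change was 0.38 and 0.31. Fkbp7, a prolyl isomerase, rose by 3.15 and 2.24 in KO1 and KO2, Prdx4, a peroxidase that feeds disulfides into folding, by 1.23 and 2.07, and the calcium-binding Rcn1 by 1.52 and 1.64. Ero1l, the oxidase that recharges the disulfide isomerases, went the other way and read 493, 609 and 533 CPM in the control libraries. Ero1l stood at 28.5, 32.002 and 26.2 CPM in KO1 and 191, 180.4 and 63.4 CPM in KO2 libraries. The 3 groups were separate, with log2 fold changes of -4.24 (adjusted p = 1.3e-05) and -1.91 (adjusted p = 0.0013). Its paralog Ero1lb stood at -1.61 and -0.78, and Rcn3, a collagen-associated calcium-binding protein, at -6.51 and -5.39, both past the test.

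Of 34 other Atf4 and integrated stress genes, 3 rose and 25 fell in KO1 cells and 4 rose and 9 fell in KO2 cells. That is 82.4% and 38.2% called beside 59.9% and 51.4% of all genes, so the KO2 count was under the background, and the 9 that fell there stand beside 26.1% of all genes. The list had medians of -1.87 and -0.52, and 22 were lower in KO1 than in KO2 with 2 higher, where 18.5% and 20.2% of all genes were. Gdf15, a secreted stress cytokine, stood at -2.18 and -1.85, the tRNA synthetase Wars at -2.49 and -1.50, and Sesn2 at -1.89 and -1.17, all past the test. The eIF2 alpha kinases other than Perk rose in both clones: Eif2ak4 (Gcn2) by 2.45 and 1.59, Eif2ak2 (Pkr) by 1.64 and 1.24, and Eif2ak1 (Hri) by 0.74 and 0.44. Of 26 other genes of ER-associated degradation, 5 rose and 9 fell in KO1 cells and 5 rose and 4 fell in KO2 cells, 53.8% and 34.6% called and so under the share of all genes in both. Ubxn4 stood at 0.64 and 0.96, Edem3, a relative of Edem1, at 0.86 and 0.56, and the conjugating enzymes Ube2j2 and Ube2j1 at -1.05 and -0.66 and at -0.56 and -0.52. Of 34 other translocon and glycosylation genes, 5 rose and 14 fell in KO1 cells and 9 rose and 3 fell in KO2 cells, 55.9% and 35.3% called and again under that share in both. Tram2, a translocon protein linked to collagen synthesis, rose by 1.60 and 1.98, Sec61a2, the second pore gene, stood at 0.97 and 1.57, and the oligosaccharyltransferase subunit Krtcap2 at -1.50 and -0.78. Of 45 other COPII, ERGIC and retrieval genes, 12 rose and 12 fell in KO1 cells and 18 rose and 9 fell in KO2 cells, 53.3% and 60% called, which is under that share in KO1 and above it in KO2. Sec16b rose by 2.42 and 1.54, the coatomer subunit Copz2 stood at 1.86 and 1.41, the cargo receptor Tmed3 at 1.17 and 1.18 and Sec23b, the paralog of Sec23a, at -1.03 in KO1 and -0.39 in KO2, where it did not pass (adjusted p = 0.053). Mia2, the partner of Mia3 in procollagen export, stood at -2.18 and -1.52, past the test in both.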

How the data were processed

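RNA of PPTR cells was sequenced in 9 libraries (WT, KO1 and KO2, 3 each). The authors pseudoaligned the reads with kallisto 0.46.1, per the submitters' processing notes, against mm10 (GRCm38), and the deposited table holds estimated counts per gene symbol without normalization. All deposited values were whole numbers and were used as counts, and 0 columns of values were left out. How transcripts were summed to genes is not given in the sources used here. Library totals ran from 53415907 to 125223073 counts, and a count of 3 was the limit of detection.

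Counts were scaled with TMM, filtered with filterByExpr and tested with edgeR 4.0.16 (R 4.3.3) by its quasi-likelihood test, with Benjamini-Hochberg adjustment over the 17672 genes kept and a threshold of 0.05. KO1 and KO2 were compared with WT and with each other in a fit with 3 groups, and pooled in a fit with 2 groups. Intervals are at 95%. The model was tested on simulated data in which both clones were given the same changes. That test does not show how the pooled fit behaves where the clones differ. The 38 genes and all lists were chosen with earlier results of these data known. The text names all 38, Vcam1 and, of each further list, genes among the 3 largest increases and decreases in the pooled comparison with an adjusted p below 0.05 and a mean of at least 5 CPM. Alternatives were limma-voom (limma 3.58.1), DESeq2 1.42.0, other factors and filters, each library left out, and fits on 6 libraries. No 2 libraries of a group agreed within sampling noise in a chi-square comparison of their counts.

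Promoter windows are from RefSeq (GRCm38.p6) and gene positions from GENCODE vM21 on GRCm38. Sharing of 31-base words between transcripts, which bears on how kallisto assigns reads, was 18.4% for Sec61b, 9.29% for Ppib and 5.13% for Dnajb9. The sharing was computed on GENCODE vM21 transcripts, which is not the GENCODE release that the authors reported for kallisto. Protein sequences were not used here. Some items of the genotype and of the marker lists are not reported here. Figures were drawn with matplotlib 3.10.9.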

Additional observations from a re-analysis of the deposited data

Results flagged for a closer look

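Over the 6 libraries of both clones, Dixon's test at the 95% level marked 1 library as far from the others for 4 of the 38 genes. Chance marks about 1 in 20 groups only where all libraries come from the same group. Here the clones were mixed, so a difference between them can hide a library that is far from its own clone. The isomerase Pdia3 was low in KO1 replicate 3, at 946 CPM, and P4hb was low in the same library, at 1658 CPM. Creb3l2 was high in it, at 223 CPM. Sel1l was low in KO2 replicate 3, at 77.5 CPM. These are the libraries in which proliferation genes were lowest in KO1 and highest in KO2 cells, and whether that bears on these values was not tested.

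The change from control differed between the clones for 14 of the 38 genes in the direct test of KO1 against KO2. That is 36.8% of the 38, close to the 38.7% of all genes tested, so the total says nothing particular about the group. The log2 difference of KO1 minus KO2 was -4.73 for Trib3, -2.64 for Chac1, -2.55 for Asns, -1.86 for Ern1, -1.18 for Atf6, -1.08 for Hyou1, -0.74 for Atf4, -0.55 for Kdelr3, -0.36 for Dnajc3 and -0.36 for Sec24d. It was above 0 for 4 genes, at 0.70 for Calr, 0.61 for Pdia4, 0.54 for Eif2ak3 and 0.53 for Dnajb11. For Dnajb11, Calr and Pdia4 both clones were above control and KO1 further, for Ern1, Atf4, Trib3 and Chac1 both were below control and KO1 further, and for Dnajc3 and Sec24d KO2 was further above control. For Hyou1, Atf6 and Asns KO1 alone passed against control and for Eif2ak3 KO2 alone did, while for Kdelr3 neither did.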

How the results depend on the processing

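Each comparison was recomputed with limma-voom, DESeq2, RLE and upper-quartile factors, without a filter, with a demand for 1 CPM on average, with another design and with each library left out. The counts of genes past the threshold stayed within 1.5 times those of the report, with an exception. Averaging the contrasts of the clones in place of pooling them gave 14 genes lower than control where pooling gave 6. Of all genes tested, averaging called 59.2% and pooling 43%. Of those called, 48.3% and 50.6% were higher than control. With any 1 library left out, 20 of 23 calls remained in KO1, 16 of 22 in KO2, 11 of 16 in the pooled comparison and 10 of 14 between the clones. Pooled calls were lost for Dnajb11 without any 1 control library, for Dnajc3 without any 1 control or KO2 library, for Edem1 and Chac1 without WT replicate 2 and for Sdf2l1 without WT replicate 3. Pooled values passed for P4hb without KO1 replicate 3, for Sec61b without KO2 replicate 3 and for Sel1l without WT replicate 2, KO2 replicate 1 or KO2 replicate 3, and differences between the clones passed for Sec61b without WT replicate 2 or 3 or KO2 replicate 1, for Mia3 and Sec61a1 without WT replicate 2, for Creld2 without KO2 replicate 1 and for Edem1 without KO1 replicate 2. The pooled values of Ern1 and Trib3 and the KO1 values of Dnajb9 and Sec61a1, which missed the threshold in the report, passed with limma-voom and with DESeq2, Trib3 at -4.19 and -2.61. Differences between the clones passed for Serpinh1, Xbp1, Sec61b, Mia3 and Creb3l1 in the fit on the 6 clone libraries, and for Edem1, Sec61b and Mia3 with DESeq2. Calls lost under another normalization, filter or design were those of Dnajb11, Mia3, P4hb and Sel1l in KO2, Hspa5 and Ppib in KO1, Dnajc3 in the pooled comparison, and Atf4 and Sec24d between the clones. Of 2584 recomputed values 47 changed sign, 0 of them past the threshold in either fit, and the cause was not tested. With 1 library left out the log2 values of those genes ran, for pooled clones against control, Creb3l2 from -0.098 to 0.12, Ddit3 from -0.83 to 0.30, Kdelr3 from -0.037 to 0.15 and Syvn1 from -0.17 to 0.092. For KO1 against control, values ran: Canx from -0.044 to 0.15, Creb3l2 from -0.0041 to 0.41, Creld2 from -0.12 to 0.077, Ddit3 from -0.90 to 0.25, Mia3 from -0.038 to 0.17, Sec23a from -0.15 to 0.011 and Syvn1 from -0.15 to 0.13. For KO2 against control, values ran: Atf6 from -0.17 to 0.13, Ddit3 from -0.79 to 0.36, Manf from -0.13 to 0.039, Sec61a1 from -0.14 to 0.022 and Syvn1 from -0.19 to 0.051. For KO1 against KO2, values ran: Canx from -0.17 to 0.0024, Ddit3 from -0.44 to 0.079, Pdia3 from -0.16 to 0.018, Sdf2l1 from -0.17 to 0.16, Sel1l from -0.061 to 0.16 and Syvn1 from -2.7e-04 to 0.11. Without the third library of both clones, an alternative chosen after the data were seen, they were Creb3l2 at -0.063 for pooled clones against control, Creb3l2 at -0.043 for KO1 against control, Atf6 at 0.14 for KO2 against control and Sdf2l1 at 0.28, Pdia3 at 0.017, Pdia6 at 0.11, Sel1l at -0.035 and Syvn1 at -0.036 for KO1 against KO2. With limma-voom they were Creld2 at 0.0043 for KO1 against control and Sdf2l1 at 0.0018 for KO1 against KO2, with upper-quartile factors Creld2 at 0.0019 for KO1 against control and Sdf2l1 at 0.039 and Ddit3 at 0.0098 for KO1 against KO2, without a filter Canx at -0.0020 for KO1 against control, and with the demand for 1 CPM Sdf2l1 at 0.0086 for KO1 against KO2. No paired analysis was possible because the labels give no replicate numbers that the groups share. The p-values measure the spread between these libraries, and depth did not limit the values of the 38 genes, whose lowest count in any library was 251.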
